A study of Mus musculus with 48 samples.

Results

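The retina at postnatal day 42 (P42) was compared with 5 other organs of the same age by 2 assays. Its members are the 4 P42 retina libraries, 2 by RNA-seq and 2 by Ribo-seq, of 48 libraries in the series, and they were chosen by their labels. They were set against the 20 P42 libraries of brain, heart, kidney, liver and lung, 10 in each assay and 2 of each tissue. All animals were wild-type C57BL/6 mice, and no group carried a transgene, a deletion or a treatment. RNA-seq measured polyadenylated RNA, and Ribo-seq measured footprints, the stretches of mRNA that ribosomes shield from nuclease. Frozen tissue was lysed with cycloheximide, which holds ribosomes in place. A second set of 24 libraries came from the same 6 tissues on embryonic day 15.5 (E15.5) and was used to see which P42 differences were present before birth. The 2 libraries of a group are biological replicates per the labels, which do not say whether they came from single animals or pools. P-values therefore measure the spread between those 2 samples, pooled over the tissues.

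The retina turns light into nerve signals. Light starts a cascade in the outer segments of rods and cones: an opsin activates the G protein transducin, transducin activates a phosphodiesterase, the cyclic GMP level falls and cyclic nucleotide-gated channels close. Photoreceptors pass the signal through ribbon synapses to bipolar cells, which drive ganglion cells, while horizontal and amacrine cells modulate it and Müller glia support it. The inner part of the tissue has its own vessels, rods in the mouse greatly outnumber cones, and photoreceptors are known for fermenting glucose to lactate even in oxygen. The homeodomain factor Crx, which binds the letters TAATCC, and the leucine zipper factor Nrl are known to drive photoreceptor genes together.

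The 4 libraries carried the defining markers of the labelled tissue. Rod genes (Gnat1, Nrl, Nr2e3 and Pde6b), cone genes (Opn1sw, Opn1mw, Arr3, Gnat2 and Pde6h) and bipolar genes (Grm6, Trpm1, Pcp2 and Cabp5) were above every library of the other organs in both assays. Markers of neighbouring eye tissues were present too. The pigment epithelium gene Rpe65 had 14 and 30.2 TPM in the 2 retina RNA-seq libraries, and the lens gene Cryaa had 36.4 and 103 TPM. Cornea markers were low, with Kera at 0 and 0 TPM and Krt12 at 1.6 and 1.38 TPM in retina RNA-seq, against up to 38.7 TPM of Krt12 in brain. Myelin markers of the optic nerve were low beside the brain: Mog, the myelin oligodendrocyte glycoprotein, had 0.786 and 0.307 TPM in retina, against at most 349 TPM in brain. In tissue RNA, fewer cells of a type and less RNA per cell cannot be told apart.

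Promoters of the photoreceptor genes are shown first, because these genes carried the largest differences and their members moved together. RefSeq start sites of GRCm38.p6 were matched for 16501 genes of the tables, and the 250 bases before each start were searched on both strands for TAATCC, whose reverse complement is GGATTA. The motif was found in 35.1% of the 37 matched genes of the rod, cone, regulatory and outer segment lists, in 13 promoters. Among genes later called higher in P42 retina by both assays it stood in 14.8% of the 365 matched, among those called lower in 4.21% of the 95 matched, and in 5.95% of all 16501. The core letters of Nrl sites, TGCTGA, whose reverse complement is TCAGCA, was found in 18.9% of the photoreceptor genes, 19.2% of the higher genes, 13.7% of the lower genes and 14.6% of all. A match is a description of letters and not of binding. The 5 promoters below are those of genes for the interphotoreceptor retinoid carrier (Rbp3), the rod transducin gamma subunit (Gngt1), rod arrestin (Sag), the phosphodiesterase chaperone (Aipl1) and a guanylate cyclase activator (Guca1a). They were chosen because they hold the motif, as the matched photoreceptor genes with the largest RNA-seq differences that do. No match was found before Pdc, Prph2, Pde6b, Slc24a1 and Grk1, whose RNA-seq differences were larger than that of Guca1a. Capitals mark the motif, which reads GGATTA on the gene's strand in all 5. Its first base is at -69, -44, -87, -53 and -57 in that order, where -1 is the base before the RefSeq start. That start lies 216 bases from the start in the tables' annotation for Gngt1 and 22 bases from it for Guca1a. Each sequence is GRCm38.p6, from RefSeq, written 5′ to 3′ on the strand of its gene.
Rbp3, chr14:33953753-33954002, plus strand: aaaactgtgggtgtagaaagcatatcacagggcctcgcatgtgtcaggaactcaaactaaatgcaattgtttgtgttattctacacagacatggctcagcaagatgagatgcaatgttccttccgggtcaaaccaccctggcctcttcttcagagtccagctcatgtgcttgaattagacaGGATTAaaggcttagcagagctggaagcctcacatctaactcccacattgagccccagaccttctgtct
Gngt1, chr6:3993758-3994007, plus strand: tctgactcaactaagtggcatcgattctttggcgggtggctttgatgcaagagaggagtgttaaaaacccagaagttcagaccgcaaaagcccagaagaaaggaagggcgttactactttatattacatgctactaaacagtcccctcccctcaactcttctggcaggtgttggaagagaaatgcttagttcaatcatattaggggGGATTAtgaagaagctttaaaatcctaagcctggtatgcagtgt
Sag, chr1:87803430-87803679, plus strand: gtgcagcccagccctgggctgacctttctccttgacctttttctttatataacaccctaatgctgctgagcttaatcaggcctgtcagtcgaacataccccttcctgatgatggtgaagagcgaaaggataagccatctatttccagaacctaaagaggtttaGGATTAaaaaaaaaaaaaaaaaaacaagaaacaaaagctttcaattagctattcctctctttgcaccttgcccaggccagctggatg
Aipl1, chr11:72037510-72037759, minus strand: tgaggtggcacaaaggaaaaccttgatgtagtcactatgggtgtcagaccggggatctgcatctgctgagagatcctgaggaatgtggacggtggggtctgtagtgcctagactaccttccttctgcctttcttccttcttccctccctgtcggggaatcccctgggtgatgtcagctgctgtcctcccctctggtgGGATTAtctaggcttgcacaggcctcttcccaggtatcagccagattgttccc
Guca1a, chr17:47400607-47400856, minus strand: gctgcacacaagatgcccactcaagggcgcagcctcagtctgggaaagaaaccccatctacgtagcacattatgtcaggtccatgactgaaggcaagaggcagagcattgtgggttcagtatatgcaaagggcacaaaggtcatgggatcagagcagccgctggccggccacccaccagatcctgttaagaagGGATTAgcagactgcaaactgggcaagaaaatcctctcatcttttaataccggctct

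Values are TPM, a share of each library's reads after division by gene length, so that levels of different genes within an assay can be set side by side. Differences are on the log2(TPM + 1) scale, which understates the change of genes with low values. A gene was called higher or lower in P42 retina when it differed from each of the 5 other tissues in the same direction, each time by at least 1 on the log2 scale and with a limma adjusted p under 0.05. The difference given for a gene is that against the nearest tissue, and its adjusted p is the largest of the 5 after Benjamini-Hochberg adjustment over all genes tested. By RNA-seq 2590 of 16416 genes tested were higher in P42 retina than in every other tissue, 15.8%, and 224 were lower, 1.36%. By Ribo-seq 479 of 16076 genes were higher, 2.98%, and 344 were lower, 2.14%. Both assays called 465 of 15381 genes higher, 3.02%, and 136 lower, 0.884%. Of the genes that Ribo-seq called higher, 97.1% were called by RNA-seq too, while 18% of the genes that RNA-seq called higher were called by Ribo-seq. For lower genes the shares were 39.5% of the Ribo-seq calls and 60.7% of the RNA-seq calls.

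The surplus of RNA-seq calls depended on scale. By RNA-seq the median over genes of the difference between P42 retina and brain, heart, kidney, liver and lung was 0.12, 1.74, 0.76, 1.40 and 0.87 log2. By Ribo-seq the same 5 medians were -0.42, 0.44, -0.01, 0.54 and -0.20. By RNA-seq 951 genes were higher and 583 lower once libraries were scaled by median of ratios, and 1132 and 709 once each contrast was centred on its median gene. With listed genes rescaled to the same sum in every library, 896 were higher and 195 lower by Ribo-seq, and 805 and 89 by both assays. With mitochondrially encoded genes left out as well, Ribo-seq gave 847 and 212, and both assays gave 753 and 103. Genes called higher under every scaling numbered 877 by RNA-seq, 437 by Ribo-seq and 372 by both, and genes called lower 203, 159 and 72. Without the second retina replicate both assays called 289 genes higher, and 440 when the genes tested were kept as with all 12 libraries. Lists of genes are described below by how many of their tested members were called, to be read against the percentages above and the counts under every scaling. Only genes with at least 1 TPM in at least 2 of the 12 libraries were tested, and other members are left out of these counts. A gene found in retina alone enters through the 2 retina libraries, which raises the share called higher among those tested.

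Rod genes stood farthest from the other organs. All 12 genes of the rod phototransduction list were called higher in P42 retina by both assays and under every scaling. Their summed level was 60598 and 55555 TPM in the retina RNA-seq libraries, against 37.1 to 463 TPM in the other 10. Their median difference from the highest other tissue was 9.44 log2 by RNA-seq and 8.11 by Ribo-seq, where the median over all genes tested was -0.42 and -1.21. Together the 465 genes called higher by both assays held 19.9% and 19.3% of listed TPM in retina RNA-seq, against at most 0.958% in any other P42 library. In retina Ribo-seq they held 22.4% and 20.8%, against at most 0.975% elsewhere.

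Gnat1, the alpha subunit of rod transducin (chr9:107674474-107679712, minus strand, GRCm38), had 22299.6 and 18669.9 TPM in retina RNA-seq, against 0.0104, 0.792 and 17.2 TPM in the other libraries, with liver the highest. Its retina footprints were 6258 and 5724 TPM, against 0.390, 2.29 and 9.17 TPM elsewhere. No other library came near either retina value, and the RNA-seq difference from liver was 10.14 log2 (SE 0.14, limma adjusted p = 1.8e-13). Its footprint difference from kidney was 9.26 log2 (SE 0.39, limma adjusted p = 3.2e-09). Gngt1, the gamma subunit that completes rod transducin, had 1232 and 1493 TPM in retina and at most 0.628 TPM elsewhere by RNA-seq. The 3 rod phosphodiesterase genes kept the same order of levels in both retina RNA-seq libraries: Pde6g, the inhibitory subunit, had 3635 and 4099.9 TPM, against at most 2.21 TPM elsewhere. Pde6a, a catalytic subunit, had 2166 and 1696 TPM in retina and at most 2.72 TPM elsewhere. Pde6b, the other catalytic subunit, had 1518 and 1483 TPM in retina and at most 0.657 TPM elsewhere. The RNA-seq and Ribo-seq values of these and other genes by library are in the plot of genes of photoreceptors, bipolar cells, regulators and glia.

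**Figure D1:**
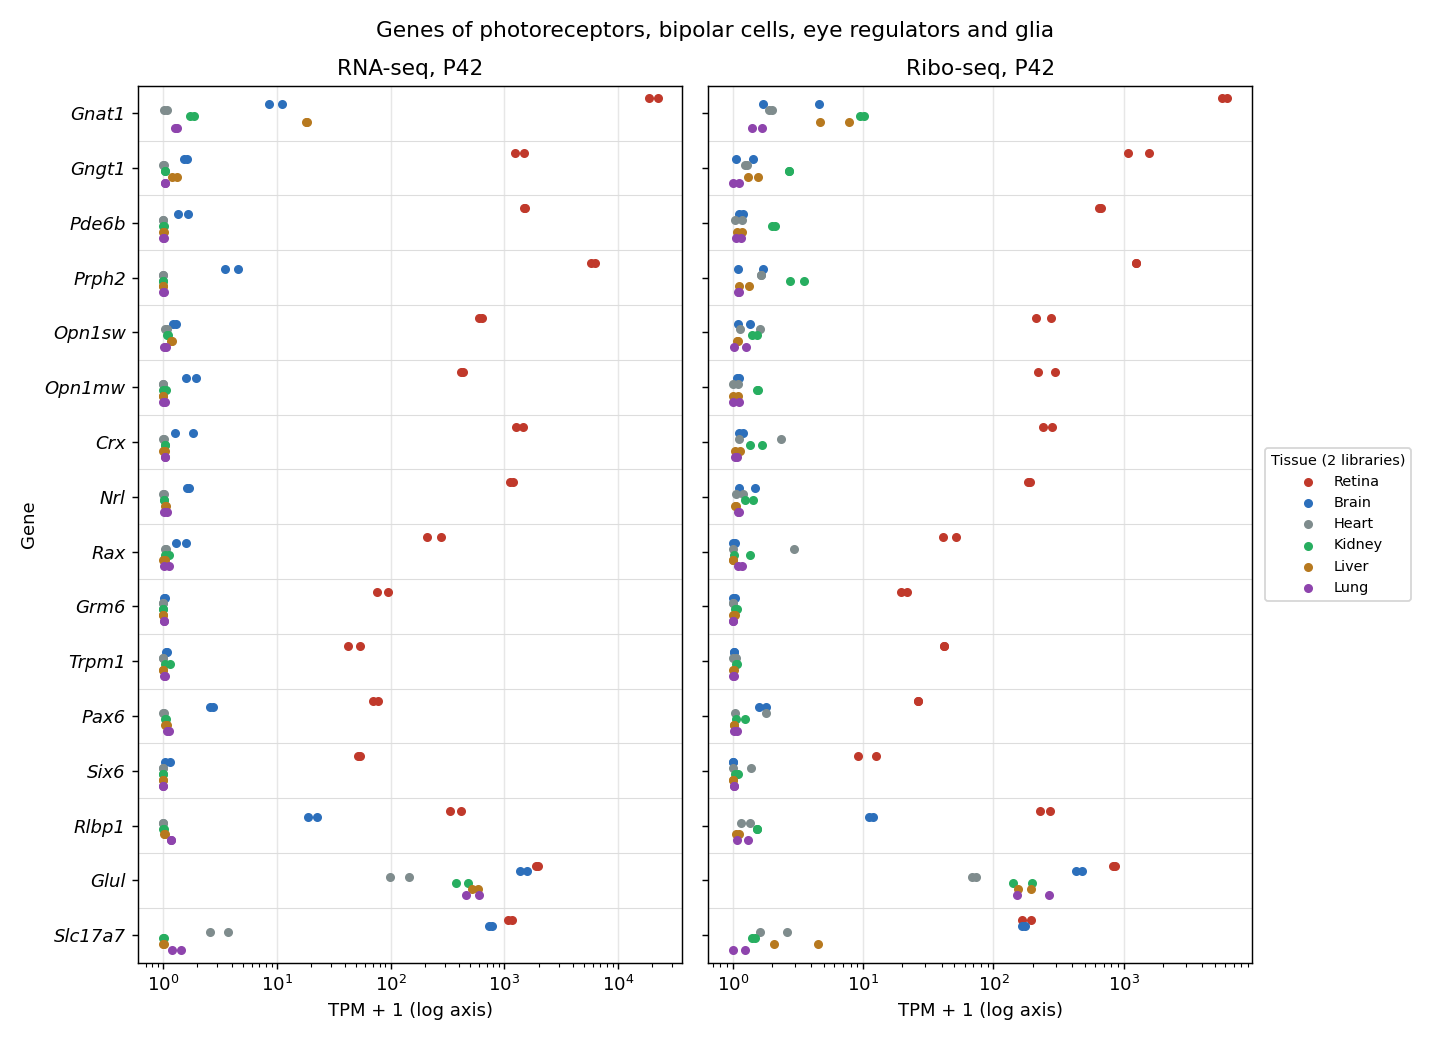
TPM + 1 on a log axis for 16 genes, with 1 point per P42 library, by RNA-seq on the left and Ribo-seq on the right, and with retina in red above the other tissues of each gene. From Gnat1 to Rlbp1 both retina points lie right of all 10 others in both assays, while Glul and Slc17a7 lie close to brain.

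Cone genes followed at lower levels. Of 11 members tested, 10 were higher in P42 retina by each assay, and 8 by RNA-seq and 10 by Ribo-seq under every scaling. Their summed RNA-seq level was 2244 and 2338 TPM in retina, against 10.8 to 129 TPM in the other libraries. Opn1sw, the short-wavelength opsin, had 629.9 and 595 TPM in retina, against 0.0139, 0.0990 and 0.290 TPM elsewhere, and its exons overlap those of Calu, while the strand used in counting is not given in the sources used here. Opn1mw, the middle-wavelength opsin, had 413 and 429.8 TPM in retina and at most 0.950 TPM elsewhere. Both opsins were thus clear of every other library, at 8.93 and 7.91 log2 above brain (limma adjusted p = 1.05e-13 and 4.38e-13). Arr3, cone arrestin, had 242 and 327 TPM in retina and at most 1.09 TPM elsewhere. Gnat2, the cone transducin alpha subunit, had 238 and 228 TPM in retina and at most 0.678 TPM elsewhere. The member not called was Slc24a2, a sodium, calcium and potassium exchanger of cones and of neurons, with 24.8 and 18.6 TPM in retina and up to 119 TPM in brain.

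All 12 genes that regulate phototransduction and all 16 outer segment genes were higher in P42 retina by both assays and under every scaling. Pdc, phosducin, which binds transducin beta-gamma, had 3594 and 3712 TPM in retina and at most 1.20 TPM elsewhere by RNA-seq. Its footprints were 2673 and 2345 TPM in retina and at most 3.62 TPM elsewhere. Rcvrn, recoverin, a calcium sensor of photoreceptors, had 4336 and 4613 TPM in retina, against 0, 0 and 2.33 TPM elsewhere. Both genes were 10.78 and 10.75 log2 above brain (limma adjusted p = 1.05e-13 and 1.53e-12). Guca1b, a guanylate cyclase activator, had 1453 and 1611 TPM in retina, and Aipl1 had 759 and 782 TPM. Prph2, a peripherin that shapes disc rims, had 5777 and 6247 TPM in retina, against 0, 0 and 3.55 TPM elsewhere. Its partner Rom1 had 4278 and 4827 TPM in retina and up to 15.6 TPM elsewhere. Rbp3, whose promoter is printed above, had 3532 and 2882 TPM in retina and at most 1.40 TPM elsewhere. Tulp1, a protein of outer segment transport, had 658 and 726 TPM in retina.

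Genes of the connecting cilium and its protein complexes were less uniform. Of 26 tested, 21 were higher in P42 retina by RNA-seq and 14 by Ribo-seq, with a median difference from the highest other tissue of 2.30 and 1.41 log2. Rpgrip1, which anchors the RPGR protein at the cilium, had 473 and 303 TPM in retina RNA-seq, against 0.874 to 7.44 TPM elsewhere. Its retina footprints were 19.0 and 21.5 TPM, against 0.268 to 1.46 TPM elsewhere. Mak, a kinase of ciliary length, had 161 and 117 TPM in retina by RNA-seq and 23.8 and 24.9 TPM by Ribo-seq. Adgrv1, a large adhesion receptor, had 40.1 and 27.4 TPM in retina RNA-seq and at most 0.295 TPM elsewhere, and its footprints were 5.17 and 5.23 TPM in retina and at most 0.322 TPM elsewhere. In these 3 genes retina was apart from all other libraries in both assays. The RNA-seq difference exceeded the footprint difference in each, with 5.59, 5.49 and 4.77 against 3.34, 3.29 and 2.37 log2, and that gap was not tested. Among the members not called by RNA-seq were Rpgrip1l, Spata7, Kif3a and Ush1c.

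Transcription factors of photoreceptors were higher in P42 retina for 14 of 16 members by RNA-seq and for 10 of 16 by Ribo-seq. Crx had 1459.9 and 1274 TPM in retina RNA-seq, against 0, 0.0331 and 0.811 TPM in the other libraries. Its retina footprints were 279.9 and 241 TPM, against at most 1.35 TPM elsewhere. Nrl had 1127 and 1194 TPM in retina RNA-seq and at most 0.676 TPM elsewhere. Nr2e3, the nuclear receptor that represses cone genes in rods, had 591 and 613 TPM in retina, against at most 0.658 TPM. The 3 genes were 9.82, 9.46 and 8.68 log2 above the nearest tissue (limma adjusted p = 6.94e-13, 1.05e-13 and 4.47e-13). Ankrd33, also known as panky, a transcriptional cofactor of photoreceptors, had 372 and 374 TPM in retina and at most 0.147 TPM elsewhere. Mef2c and Rxrg were the members not called by RNA-seq.

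Regulators of eye and inner retina identity formed the next group, with 25 of 35 higher in P42 retina by RNA-seq and 21 of 32 by Ribo-seq. Under every scaling the counts were 23 and 20. Rax, required for eye formation, had 208 and 275 TPM in retina RNA-seq, against 0, 0.0496 and 0.588 TPM elsewhere, a difference of 7.39 log2 (SE 0.14, limma adjusted p = 4.81e-12). Its exons overlap those of Raxos1. Neurod4, a proneural factor, had 148 and 124 TPM in retina and at most 0.524 TPM elsewhere. Pax6, the paired-box factor of eye formation and of amacrine cells, had 75.8 and 68.7 TPM in retina, against 0.00302, 0.0711 and 1.72 TPM elsewhere. Six6, an eye-field factor, had 51.1 and 53.2 TPM in retina and at most 0.143 TPM elsewhere. Vax2, a factor of ventral retina, had 67.7 and 80.2 TPM in retina and at most 0.198 TPM. Every retina library was above all others for these 5 genes in both assays.

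Bipolar cell genes were higher in P42 retina for 16 of 19 members by RNA-seq and 15 of 19 by Ribo-seq. Grm6, the metabotropic glutamate receptor of ON bipolar dendrites, had 93.6 and 74.6 TPM in retina RNA-seq, against 0, 0 and 0.0373 TPM elsewhere. Trpm1, the channel that this receptor closes, had 52.7 and 41.4 TPM in retina RNA-seq and 40.5 and 40.7 TPM in retina Ribo-seq, against at most 0.140 and 0.0738 TPM elsewhere. Their RNA-seq differences were 6.36 and 5.46 log2 (limma adjusted p = 1.22e-12 and 6.39e-12). Cabp5, a calcium-binding protein of bipolar cells, had 172 and 171 TPM in retina, and Scgn, secretagogin, had 120.0 and 152 TPM. Neither passed 1.11 TPM in any other library. Ribbon synapse genes were higher for 15 of 17 by RNA-seq and 11 of 17 by Ribo-seq. Cplx4, a complexin of photoreceptor terminals, had 1066 and 999.7 TPM in retina and at most 0.424 TPM elsewhere. Cacna1f, the calcium channel of those terminals, had 142 and 112 TPM in retina and at most 0.144 TPM, and Cabp4, which tunes that channel, had 438 and 501 TPM and at most 0.743 TPM. Exons of Cabp4 overlap those of Gpr152. Lrit2 had 339 and 304 TPM in retina and at most 1.74 TPM elsewhere. The vesicular glutamate transporter Slc17a7 was not called: retina RNA-seq had 1162 and 1081 TPM and brain up to 779 TPM, a difference of 0.56 log2 (limma adjusted p = 0.00815), and footprints differed by 0.08 log2 (limma adjusted p = 0.877).

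Amacrine cell genes were higher in P42 retina for 9 of 21 members by RNA-seq and 8 of 21 by Ribo-seq, and brain was the highest other tissue for 18 of the 21. Gjd2, a connexin of electrical synapses, had 116 and 136 TPM in retina RNA-seq and up to 8.92 TPM in brain. Calb2, calretinin, had 597 and 708 TPM in retina and up to 54.7 TPM in brain, and Slc6a5, the neuronal glycine transporter, had 11.3 and 9.64 TPM against at most 0.0936 TPM. Tfap2a, an amacrine transcription factor, had 26.5 and 26.7 TPM in retina and up to 3.36 TPM in kidney. The GABA-synthesizing enzyme Gad1 had 87.1 and 92.7 TPM in retina and up to 102 TPM in brain, and was not called. Of 8 horizontal cell genes 3 were higher by RNA-seq and none of them under every scaling, and by Ribo-seq 2 of 7 were higher, 1 without the second retina replicate. Among these was Gja10, a connexin, with 3.47 and 2.89 TPM in retina and at most 0.0438 TPM elsewhere. Prox1, a homeobox factor shared with liver, had 71.2 and 58.3 TPM in retina and up to 31.2 TPM in liver. Its RNA-seq difference was 1.35 log2 as deposited, -0.44 after median-of-ratios scaling and -0.05 after centring.

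Ganglion cell genes were higher in P42 retina for 7 of 20 members by RNA-seq and 6 of 19 by Ribo-seq. Sncg, gamma-synuclein, had 463 and 525 TPM in retina RNA-seq, against 0.344, 5.25 and 14.6 TPM elsewhere, a difference of 5.22 log2 (SE 0.22, limma adjusted p = 2e-09). The POU factors Pou4f1 and Pou4f2, which specify ganglion cells, had 24.5 and 25.8 TPM and 12.5 and 13.1 TPM in retina, against at most 0.385 and 0.204 TPM elsewhere. Isl2, a LIM factor of ganglion cell subsets, had 7.53 and 8.33 TPM in retina and at most 0.0433 TPM. Markers shared with other organs were not called, among them Rbpms, with 21.5 and 20.5 TPM in retina and up to 66.7 TPM in lung. Opn4, melanopsin of light-sensitive ganglion cells, had 6.79 and 5.95 TPM in retina and up to 1.71 TPM in heart. Its difference of 1.52 log2 turned to -0.23 after median-of-ratios scaling and -0.22 after centring. Drd4, the dopamine D4 receptor, had 157 and 176 TPM in retina and at most 0.718 TPM elsewhere. Of 13 listed genes of melatonin, dopamine and non-visual opsins, 6 were tested by each assay, and Opn4 and Drd4 were the 2 called by each.

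Müller glia and the visual cycle gave few calls beyond genes also found in photoreceptors or pigment epithelium. Of 17 Müller glia genes, 4 were higher in P42 retina by RNA-seq and 3 by Ribo-seq, and the Ribo-seq count was 1 without the second retina replicate. Under every scaling 3 remained by Ribo-seq and 1 by RNA-seq. The latter was Rlbp1, the retinaldehyde carrier, with 333 and 413 TPM in retina RNA-seq and up to 21.3 TPM in brain. Abca8a, a lipid transporter, had 72.5 and 71.8 TPM in retina and up to 32.7 TPM in lung, and its 1.24 log2 turned to -0.56 and -0.16 after median-of-ratios scaling and centring. Glul, glutamine synthetase, had 1914 and 1989.8 TPM in retina RNA-seq and up to 1568 TPM in brain, a difference of 0.41 log2 (limma adjusted p = 0.0973). Visual cycle genes were higher for 9 of 17 by RNA-seq and 8 of 17 by Ribo-seq. Rdh12 and Rdh8, the retinol dehydrogenases of photoreceptors, had 540.4 and 574 TPM and 201 and 139.9 TPM in retina, and Abca4, the retinoid flippase of disc rims, had 423 and 323 TPM. None of the 3 passed 2.75 TPM in another library. Rbp4, the retinol carrier of plasma, was lower by Ribo-seq, with 0.384 and 0.564 TPM in retina and 3.71 to 2956 TPM elsewhere.

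Pigment epithelium genes were called higher in P42 retina for 6 of 16 members by RNA-seq and 5 of 15 by Ribo-seq, and for 3 and 4 under every scaling. Over all members tested, the median difference from the highest other tissue was -0.80 log2 by RNA-seq and -0.95 log2 by Ribo-seq. The list had summed RNA-seq levels of 263 and 423 TPM in retina, against 62.7 to 15972 TPM elsewhere, highest in liver. Rgr, a retinal G protein-coupled receptor, had 29.9 and 44.1 TPM in retina, Rrh, peropsin, had 9.40 and 10.3 TPM, and Tyrp1, an enzyme of pigment synthesis, had 4.14 and 2.86 TPM. Best1, a chloride channel of the epithelium, had 0.778 and 0.865 TPM in retina and was not called. Of 25 listed lens genes, 23 were tested by RNA-seq and 13 were called higher, and 16 were tested by Ribo-seq and 10 were called higher. The summed RNA-seq levels of the lens list were 301 and 678 TPM in retina, against 27.8 to 1354 TPM elsewhere, highest in heart. Crybb2, Cryba1 and Crygb, crystallins of the lens fibre, had 23.7 and 81.2 TPM, 24.6 and 65.0 TPM, and 23.6 and 51.2 TPM in retina. The second retina library was the higher in each of the 3 and in Cryaa and Rpe65, by RNA-seq and by Ribo-seq. Genes of the gamma-crystallin family are close in sequence, and how reads shared between them were counted is not given. Whether crystallins came from lens or from retina cells was not tested.

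**Figure D2:**
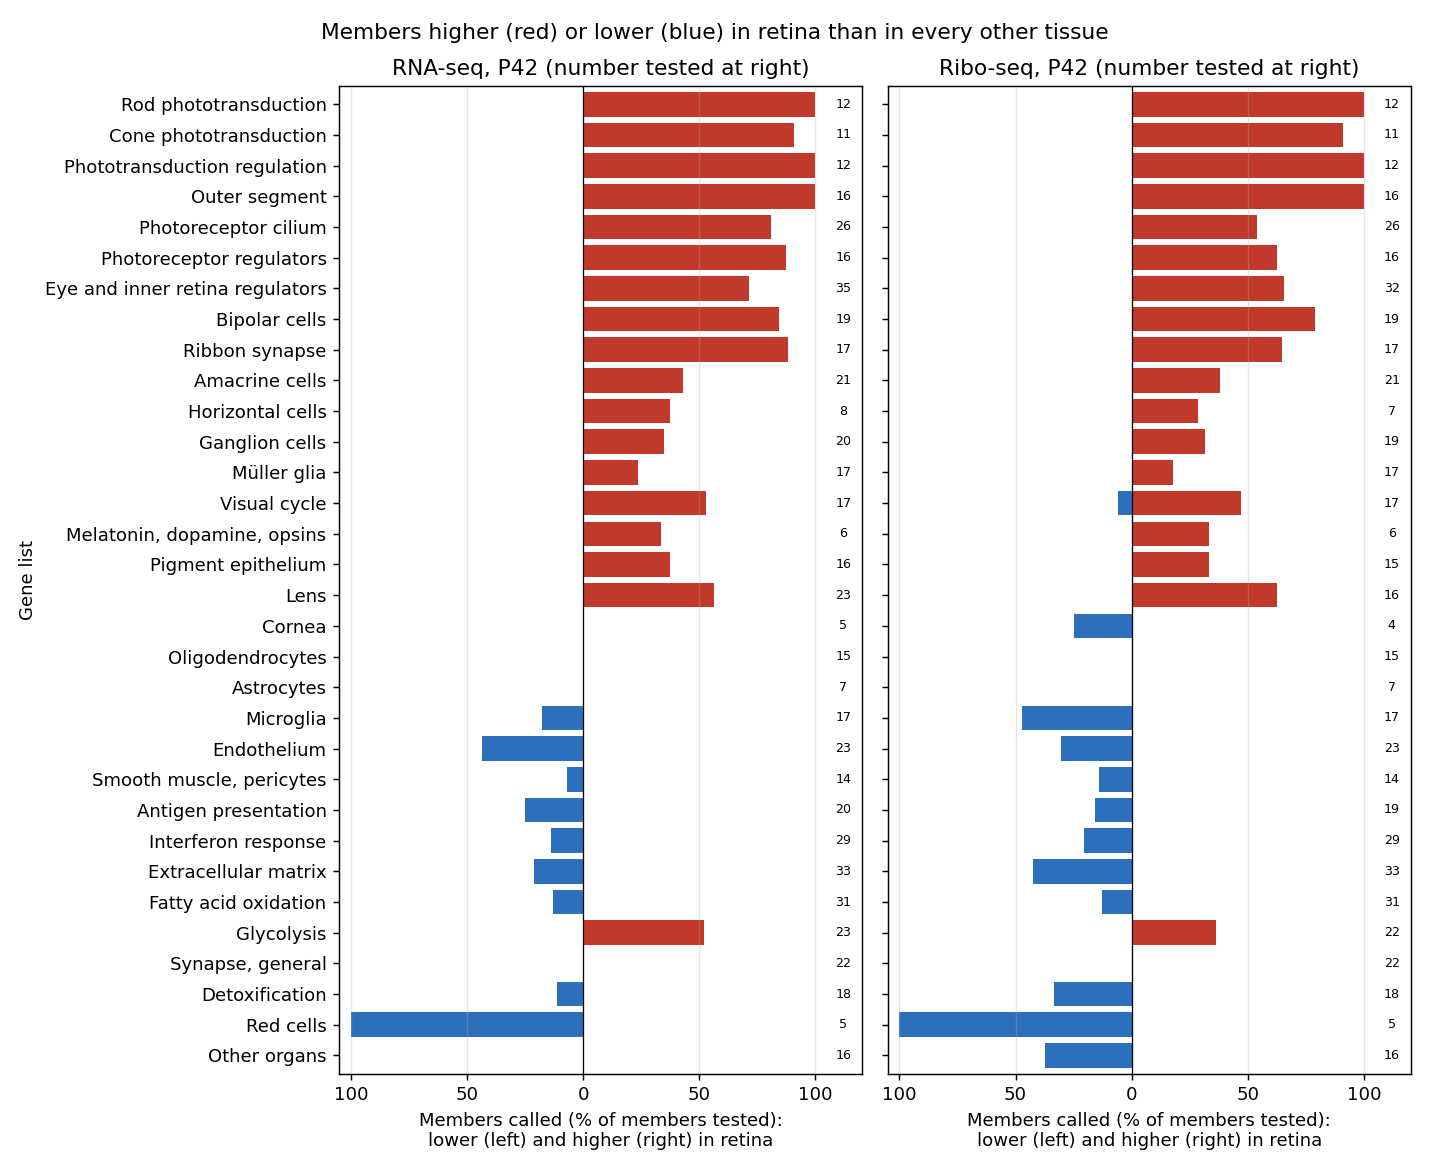
Percent of the tested members of 32 gene lists called higher (red, right) or lower (blue, left) in P42 retina than in all 5 other tissues, by RNA-seq and by Ribo-seq, with the number tested at the right. Rod, regulatory and outer segment lists reach 100% in both assays, and the red cell list is the one with all members lower.

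Genes of glucose metabolism were higher in part. By RNA-seq 12 of 23 genes of glycolysis and lactate transport were higher in P42 retina, and 4 of them, Hk1, Pfkp, Slc16a3 and Pfkfb2, under every scaling. By Ribo-seq 8 of 22 were higher, and 5 without the first retina replicate. Pfkfb2, which makes the activator of phosphofructokinase, had 142 and 91.7 TPM in retina RNA-seq, against 1.34, 2.57 and 4.78 TPM elsewhere, and 40.3 and 37.4 TPM in retina Ribo-seq, against at most 15.5 TPM. Hk2, the inducible hexokinase, had 256 and 215 TPM in retina RNA-seq and up to 33.3 TPM in heart. Pkm, pyruvate kinase of muscle type, had 1405 and 1396 TPM in retina and up to 555 TPM in brain. Ldha, lactate dehydrogenase A, had 849 and 819 TPM in retina and up to 347 TPM in kidney. The lactate exporters Slc16a3 and Slc16a8 had 33.9 and 29.1 TPM and 6.28 and 9.46 TPM in retina, against at most 4.07 and 2.01 TPM. Each of these 6 genes was higher in both retina libraries than in any other RNA-seq library. No member of the list was lower.

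Genes of synapses in general, of oligodendrocytes and of astrocytes gave no call in either direction by either assay. The synaptic protein gene Snap25 had 775 and 761 TPM in retina RNA-seq and up to 1501 TPM in brain. Mbp, myelin basic protein, had 10.7 and 9.62 TPM in retina and up to 1586 TPM in brain, and Gfap, the filament of astrocytes, had 13.7 and 14.6 TPM in retina and up to 143 TPM in brain. Both retina libraries were below brain for these 3 genes.

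RNA-seq and footprints parted for some genes. The largest differences called by RNA-seq alone were those of Glp2r, Gsg1 and Crxos. Glp2r, a receptor of a gut peptide, had 178 and 172 TPM in retina RNA-seq and at most 2.48 TPM elsewhere, but 0.546 and 0.812 TPM in retina Ribo-seq, against up to 7.65 TPM in brain. Its exons overlap those of Gas7. Gsg1 had 78.5 and 102 TPM in retina RNA-seq and at most 1.08 TPM elsewhere, and its footprints were 46.2 and 56.3 TPM in retina and up to 76.8 TPM in heart. Crxos, which lies beside Crx, had 28.9 and 22.4 TPM in retina RNA-seq and 0.505 and 0.628 TPM in retina Ribo-seq, too low there to be tested. Among genes with names, the largest differences called higher by Ribo-seq alone were those of Rpl27a, Ncapd2 and Sh2d1a. Rpl27a, a ribosomal protein gene, holds Snora3, and Ncapd2, a condensin subunit gene, holds Scarna10. Rpl27a footprints were 262 and 502 TPM in retina and at most 72.0 TPM elsewhere, and the call was lost without the second retina replicate. Ncapd2 footprints were 224 and 25.1 TPM in retina and at most 19.6 TPM elsewhere, and the call was lost without the first retina or the first lung replicate. Sh2d1a, an adaptor of lymphocytes whose exons overlap those of Tenm1, had footprints of 3.56 and 3.79 TPM in retina and at most 0.516 TPM elsewhere.

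**Figure D3:**
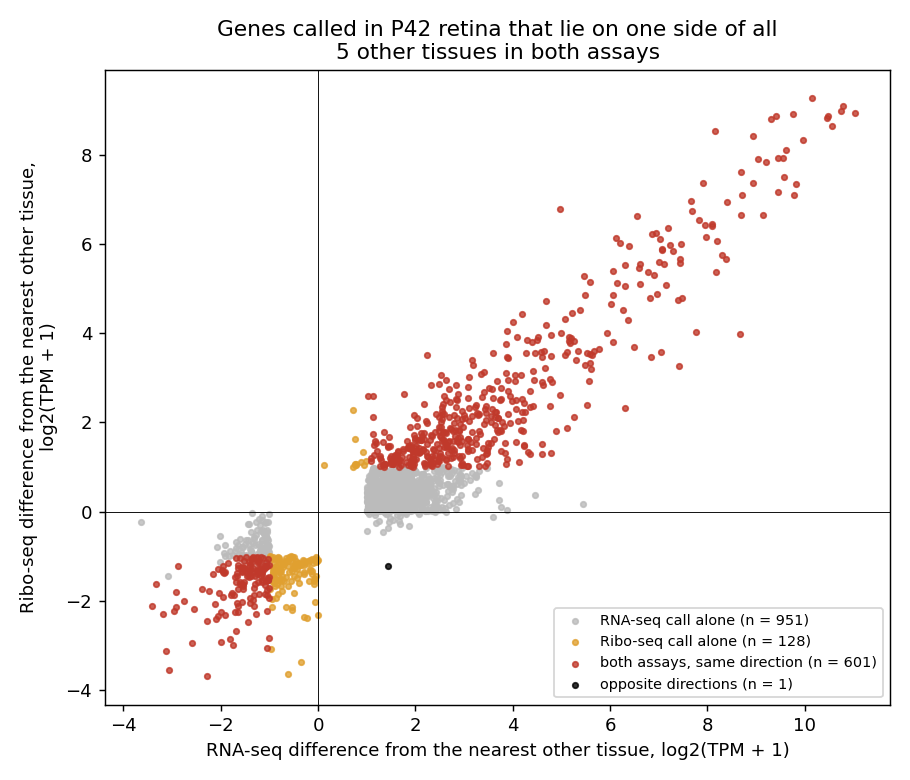
Log2 difference of P42 retina from the nearest other tissue by RNA-seq (x axis) and by Ribo-seq (y axis), for called genes that lie on one side of all 5 other tissues in both assays. Genes called by both assays in the same direction (601, red) run along the diagonal, genes called by RNA-seq alone (951, grey) lie low on the y axis, and 128 were called by Ribo-seq alone (orange) and 1 in opposite directions (black).

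Among genes lower in P42 retina than in every other tissue were those of red cells. All 5 of the list were lower by both assays, 3 by Ribo-seq without the first retina replicate and 3 by Ribo-seq under every scaling, and their summed RNA-seq level was 31.3 and 29.7 TPM in retina, against 238 to 7086 TPM elsewhere. Hba-a2, an alpha-globin, had 3.01 and 2.97 TPM in retina RNA-seq, against 31.9, 119.7 and 991 TPM in the other libraries, a difference of -3.33 log2 (SE 0.46, limma adjusted p = 4.94e-05). Hbb-bs, a beta-globin, had 18.2 and 18.3 TPM in retina and 143 to 4741 TPM elsewhere. Hba-a1 had 6.25 and 5.23 TPM in retina and 40.0 to 1056 TPM elsewhere, and Hbb-bt had 2.70 and 2.48 TPM in retina and 19.7 to 549 TPM. Hba-a1 and Hba-a2, and Hbb-bs and Hbb-bt, are near-identical copies, so that reads may be split between them. Brain was the nearest tissue for all 4.

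Of 23 endothelial genes, 10 were lower in P42 retina by RNA-seq and 7 by Ribo-seq, 4 by Ribo-seq without the first retina replicate, and 9 and 3 under every scaling. Cdh5, the cadherin of endothelial junctions, had 1.87 and 1.77 TPM in retina RNA-seq, against 8.07, 16.6 and 388 TPM elsewhere, a difference of -1.70 log2 from brain (SE 0.16, limma adjusted p = 2.25e-06). Its footprints were 0.874 and 1.93 TPM in retina and 7.97 to 914 TPM elsewhere. Eng, endoglin, had 3.01 and 3.49 TPM in retina and 18.5 to 294 TPM elsewhere, and Tie1, an endothelial receptor kinase, had 1.04 and 1.30 TPM and 5.80 to 139 TPM. Egfl7, an endothelial matrix protein whose gene holds Mir126a, had 3.97 and 5.05 TPM in retina RNA-seq and 19.0 to 390.5 TPM elsewhere. Exons of Eng overlap those of Fpgs. Cldn5, a tight junction protein of the blood-retina barrier, had 11.2 and 10.1 TPM in retina and 8.14 to 585 TPM elsewhere, and was not called. Matrix genes were lower for 7 of 33 by RNA-seq and 14 of 33 by Ribo-seq, and for 7 and 6 under every scaling. By Ribo-seq the count was 10 without the first retina replicate. Dcn, the proteoglycan decorin, had 0.201 and 0.169 TPM in retina RNA-seq, against 7.64, 56.9 and 121 TPM elsewhere. Col1a1, the type I collagen chain, had 0.672 and 0.656 TPM in retina RNA-seq and 7.09 to 157 TPM elsewhere, and footprints of 0.427 and 1.59 TPM in retina and 20.0 to 420.4 TPM elsewhere. Col1a2 and Bgn, biglycan, had 0.970 and 0.684 TPM and 1.6 and 1.36 TPM in retina RNA-seq. Their lowest other libraries had 4.74 and 7.94 TPM. Smooth muscle genes gave 1 lower call by RNA-seq, Tagln, which was lost without the first retina, the second brain or the first liver replicate, and 2 of 14 by Ribo-seq, Tagln and Acta2. Acta2 footprints were 0.943 and 1.45 TPM in retina and 4.18 to 221 TPM elsewhere. The Acta2 call was lost with listed genes rescaled to an equal sum and with mitochondrially encoded genes left out. Under every scaling 0 smooth muscle calls remained by RNA-seq and 1 by Ribo-seq, Tagln. With a pseudocount of 4 the calls of both genes were lost.

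Of 20 genes of antigen presentation, 5 were lower in P42 retina by RNA-seq, and 3 of 19 by Ribo-seq, 7 by Ribo-seq without the second retina replicate and 2 under every scaling. B2m, the light chain of class I molecules, had 77.7 and 88.3 TPM in retina RNA-seq, against 337, 849 and 5056 TPM elsewhere, a difference of -2.06 log2 from brain (SE 0.26, limma adjusted p = 2.7e-05). Its footprints were 55.6 and 74.0 TPM in retina and 314 to 3976 TPM elsewhere. Cd74, the class II invariant chain, had 1.03 and 0.908 TPM in retina RNA-seq and 15.3 to 1845 TPM elsewhere. Its footprints were 1.54 and 12.05 TPM in retina, the second level with the lowest other library at 12.03 TPM, and were not called. H2-Eb1, a class II chain, had 0.801 and 1.47 TPM in retina and 4.83 to 456 TPM elsewhere, and H2-T23, a non-classical class I heavy chain, had 2.26 and 2.72 TPM and 8.26 to 115 TPM. Microglia genes were lower for 3 of 17 by RNA-seq and 8 of 17 by Ribo-seq, and for 3 by each assay under every scaling. C1qa, a complement chain made by microglia and macrophages, had 12.7 and 16.8 TPM in retina RNA-seq and 28.6 to 185 TPM elsewhere. Tyrobp, an adaptor of myeloid receptors, had 5.61 and 7.94 TPM in retina and 14.5 to 66.5 TPM elsewhere, and its partner Fcer1g had 5.36 and 5.86 TPM and 12.5 to 161 TPM. The RNA-seq calls of C1qa and Tyrobp were lost without the first retina replicate and that of C1qa also without the first kidney replicate, and with a pseudocount of 4 the calls of all 3 genes were lost. Cd68 was lower by footprints, with 1.04 and 0.805 TPM in retina and 4.64 to 94.9 TPM elsewhere. The microglial receptors Cx3cr1 and P2ry12 were not called, with 2.65 and 2.45 TPM and 3.22 and 3.27 TPM in retina. Interferon-induced genes were lower for 4 of 29 by RNA-seq and 6 of 29 by Ribo-seq, 2 by Ribo-seq without the first retina replicate and 2 under every scaling. Ifitm2 and Ifitm3, membrane proteins that restrict viral entry, had 10.5 and 11.5 TPM and 16.7 and 19.2 TPM in retina RNA-seq, against at least 30.2 and 34.7 TPM elsewhere. Rtp4 and Ifi27 had 0.864 and 1.12 TPM and 5.82 and 7.85 TPM in retina, against at least 4.24 and 14.7 TPM elsewhere. The differences of these 4 genes from the nearest tissue were -1.01 to -1.65 log2, and no other library overlapped the retina values. The RNA-seq call of Ifitm3 was lost without the first brain replicate and that of Ifi27 without the first retina replicate. With a pseudocount of 4 the RNA-seq calls of Rtp4 and Ifi27 were lost.

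**Figure D4:**
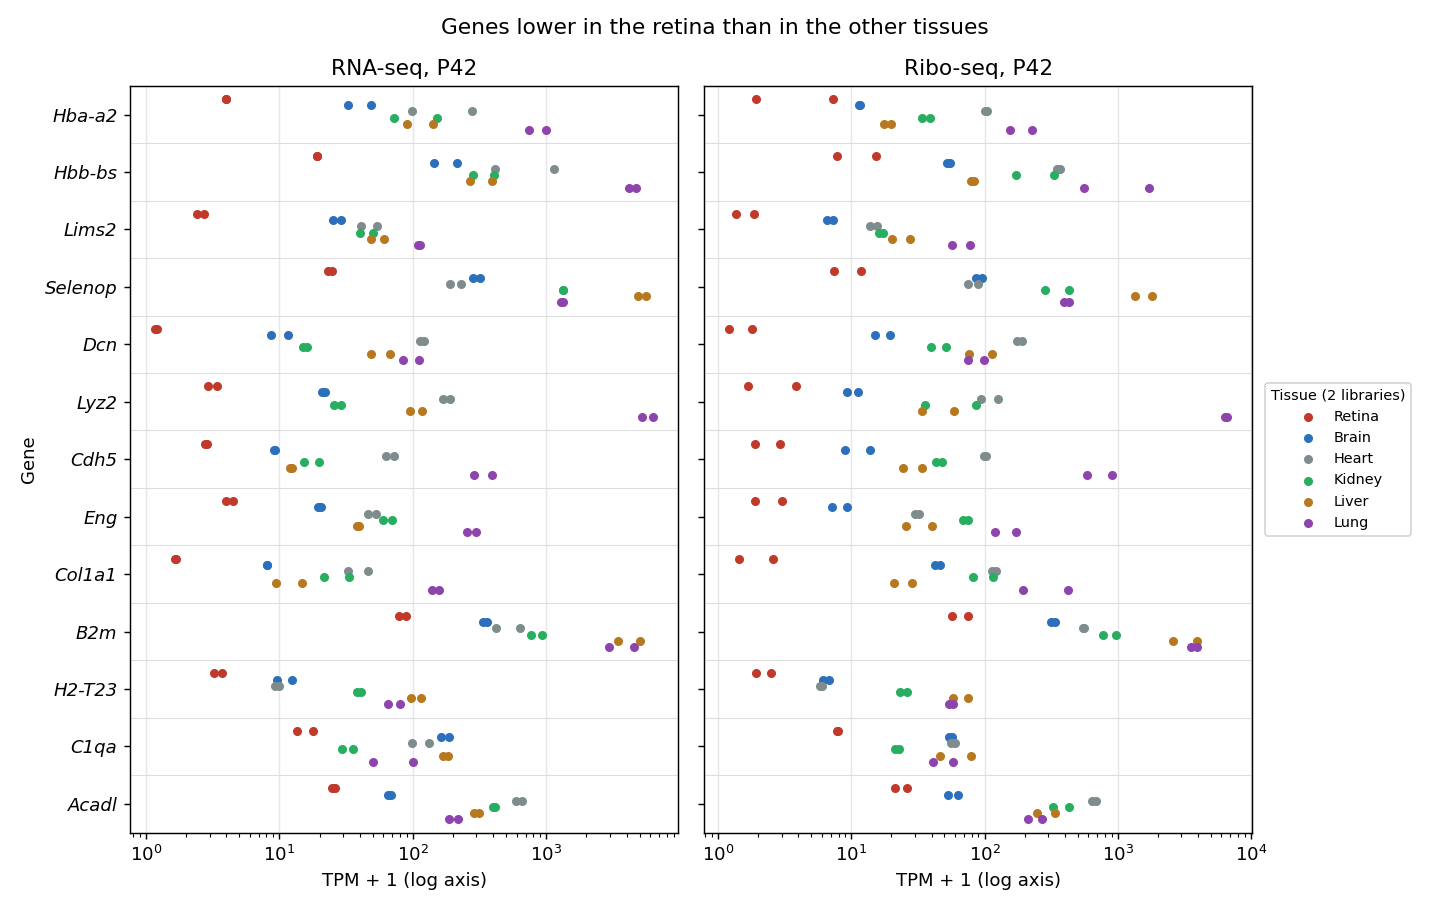
TPM + 1 on a log axis for 13 genes lower in retina, with 1 point per P42 library, by RNA-seq on the left and Ribo-seq on the right, and with retina in red above the other tissues of each gene. Both retina points lie left of all 10 others in every gene and assay, with brain the nearest tissue in most.

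Genes of fatty acid oxidation and ketone synthesis were lower in P42 retina for 4 of 31 members by each assay, 2 by each without the first retina replicate and 5 and 6 without the second. Under every scaling the counts were 4 and 1. Acadl, the long-chain acyl-CoA dehydrogenase, had 23.9 and 25.0 TPM in retina RNA-seq, against 63.7, 299 and 659 TPM elsewhere, while its Ribo-seq call was lost under each of the 4 scalings. Acads, the short-chain enzyme, had 2.90 and 3.79 TPM in retina and 7.93 to 174 TPM elsewhere, and Acot2, a mitochondrial thioesterase, had 2.69 and 2.89 TPM and 7.09 to 39.1 TPM. The RNA-seq calls of Acads and Acot2 were lost with a pseudocount of 4, and that of Acads also without the first retina replicate. Detoxification genes were lower for 2 of 18 by RNA-seq and 6 of 18 by Ribo-seq. Gstm1, a glutathione transferase, had 35.1 and 35.4 TPM in retina RNA-seq and 143 to 1853 TPM elsewhere, and Ephx1, microsomal epoxide hydrolase, had 10.4 and 12.7 TPM and 25.6 to 264 TPM. Gsta3, another transferase, was lower by footprints, with 0.215 and 0.505 TPM in retina and 3.34 to 521 TPM elsewhere. By RNA-seq the list had 1 lower call without the first retina replicate and 4 without the second.

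The largest lower differences of both assays also held genes outside these lists. Lims2, an adaptor of integrin signalling, had 1.40 and 1.71 TPM in retina RNA-seq and 24.3 to 111 TPM elsewhere, a difference of -3.41 log2 from brain (SE 0.17, limma adjusted p = 1.05e-08). Selenop, the selenium carrier of plasma, had 23.9 and 22.2 TPM in retina and 190.0 to 5616 TPM elsewhere. Its neighbour Ccdc152, which overlaps it, had 7.85 and 9.94 TPM in retina and 121 to 4237 TPM elsewhere, and was called by RNA-seq alone. Lyz2, lysozyme of myeloid cells, had 1.91 and 2.43 TPM in retina and 19.8 to 6345 TPM elsewhere. Rassf3, a Ras association domain protein, had 3.89 and 4.09 TPM in retina and 34.1 to 102 TPM elsewhere. Smpdl3a, a phosphodiesterase of the sphingomyelinase family, had 4.43 and 5.41 TPM in retina and 33.6 to 384 TPM elsewhere. S100a13, a calcium-binding protein, had 8.12 and 13.7 TPM in retina and 64.7 to 251 TPM, and Lrg1, a secreted glycoprotein, had 0.0413 and 0.172 TPM and 4.05 to 502 TPM. Ppic, a cyclophilin, had 1.13 and 1.18 TPM in retina RNA-seq and 6.97 to 263 TPM elsewhere, and was called by RNA-seq alone. In all 9 genes both retina RNA-seq libraries were below every other library.

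Some genes called lower by footprints alone are secreted or abundant products of a single other organ. Alb, serum albumin of liver, had footprints of 0.744 and 5.84 TPM in retina, against 61358 and 73121 TPM in liver and 66.6 to 501 TPM in the other 4 organs. By RNA-seq those 4 organs had 0.0810 to 22.8 TPM and retina 0.167 and 1.24 TPM, with no call. Fabp1, the liver fatty acid carrier, had footprints of 0.225 and 1.53 TPM in retina and at least 18.6 TPM elsewhere, and Cyp2e1, a liver cytochrome, 0.202 and 5.13 TPM in retina and at least 21.9 TPM elsewhere. Also called lower by footprints were Apoa1, an apolipoprotein of liver, and the lung genes Sftpc and Scgb1a1, with footprints of at most 0.955, 5.87 and 21.3 TPM in retina. The lower calls of Sftpc and Scgb1a1 were lost without the first retina, the first brain or either liver replicate, that of Sftpc also without the second brain replicate, and both were lost with no filter, with a pseudocount of 4 and under 3 of the 4 scalings. With lower calls left out where the nearest other tissue held under 5% of the highest tissue, an alternative added after the values were seen, 155 genes were lower in retina by RNA-seq, 185 by Ribo-seq and 75 by both. The second retina Ribo-seq library was higher than the first for Alb, Fabp1, Cyp2e1, Apoa1, Sftpc and Scgb1a1. Summed footprints of the 16 listed genes of other organs were 5.43 and 544 TPM in the 2 retina libraries. Kap, a kidney androgen-regulated protein, had 0.176 and 458 TPM in retina Ribo-seq and 0.0789 and 0.165 TPM in retina RNA-seq. The part of RNA from other organs in these footprint values was not tested.

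The E15.5 libraries, which the P42 calls did not use, were fitted by the same rule. By RNA-seq 342 of 16387 genes were higher in E15.5 retina than in every other E15.5 tissue, 2.09%, and 407 were lower, 2.48%. By Ribo-seq 152 of 14972 were higher, 1.02%, and 799 were lower, 5.34%. Of 2433 genes higher at P42 by RNA-seq and tested at E15.5, 165 were higher there too, 6.78%, and of 344 by Ribo-seq, 59, 17.2%. Without the first retina replicate these counts were 100 and 16, and without the second 97 and 25. With the genes tested kept they were 166 and 55, and 166 and 64. Of 224 genes lower at P42 by RNA-seq, 105 were lower at E15.5, 46.9%, and of 334 by Ribo-seq, 150, 44.9%. Genes higher at P42 by both assays held 3.11% and 2.89% of listed RNA-seq TPM in E15.5 retina, against 0.666% to 1.58% in the other E15.5 tissues.

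Regulators of retinal identity were already apart at E15.5. Of the 23 inner retina regulators higher at P42 by RNA-seq and tested at E15.5, 16 were higher at E15.5, and of 17 by Ribo-seq, 13. Rax had 470 and 303 TPM in E15.5 retina and at most 1.12 TPM in the other E15.5 libraries, and Pax6 had 208 and 221 TPM and at most 16.8 TPM. Six6 had 219 and 239 TPM in E15.5 retina and at most 1.68 TPM elsewhere. Crx had 154 and 153 TPM in E15.5 retina and at most 0.572 TPM elsewhere, and Nrl had 2.93 and 2.08 TPM and at most 0.318 TPM. Ganglion cell genes were higher at E15.5 for 6 of 7 by RNA-seq and 5 of 5 by Ribo-seq, with Sncg at 2094 and 1721 TPM in E15.5 retina and at most 86.5 TPM elsewhere. Levels of E15.5 and P42 come from tables normalized apart and are not compared by test.

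Of the 12 rod phototransduction genes, 3 passed the filter at E15.5 by RNA-seq, Gnb1, Pde6g and Slc24a1, and none was higher. Gnat1 had 0.739 and 0.780 TPM in E15.5 retina, within the 0.0412 to 1.22 TPM of the other E15.5 libraries. By Ribo-seq 5 passed the filter and 4 were higher, among them Gnat1, Gngt1 and Pde6g. Gnat1 footprints were 4.00 and 13.2 TPM in E15.5 retina and at most 0.258 TPM elsewhere. Gnat1 thus passed the filter through the retina libraries alone. For such a gene a higher call was nearly fixed once it was tested, so the share called carries little weight. The second E15.5 retina library had the higher value in these 3 genes. Of 10 cone genes, 8 were tested at E15.5 by RNA-seq and 5 were higher, among them Gnat2 with 15.4 and 10.4 TPM in E15.5 retina and at most 5.70 TPM elsewhere. By Ribo-seq 6 of the 10 were tested at E15.5 and 2 were higher, Cnga3 and Gngt2, while Gnat2 was tested and not called.

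**Figure D5:**
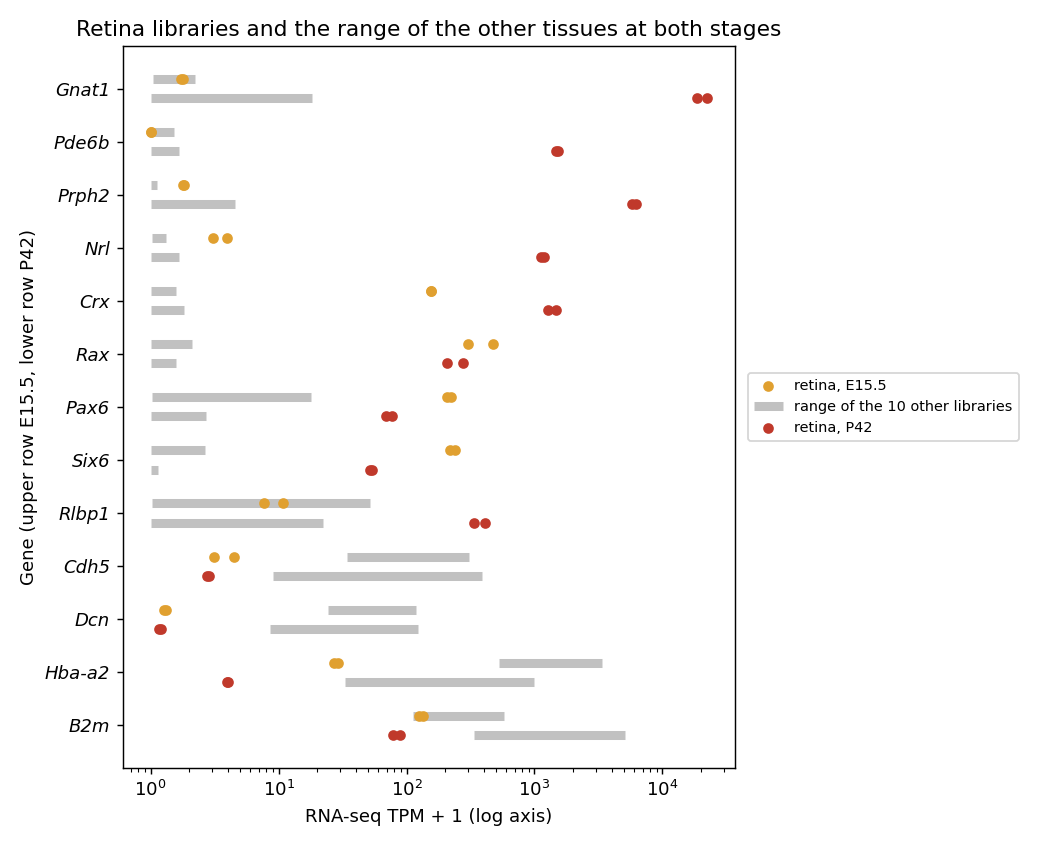
RNA-seq TPM + 1 on a log axis for 13 genes, with the 2 retina libraries as points (E15.5 orange in the upper row of each gene, P42 red in the lower) and the range of the 10 other libraries of that stage as a grey bar. Rax, Pax6 and Six6 lie right of the bar at both stages, Gnat1 and Pde6b at P42 and not at E15.5, and Cdh5, Dcn and Hba-a2 left of the bar at both.

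All 5 red cell genes were lower in E15.5 retina by both assays, as were, of the genes lower at P42, 9 of 10 endothelial genes by RNA-seq and 7 of 7 by Ribo-seq, 7 of 7 and 10 of 14 matrix genes, and 3 of 3 and 8 of 8 microglia genes. Dcn had 0.281 and 0.310 TPM in E15.5 retina and 23.2 to 118 TPM elsewhere, and Cdh5 had 2.15 and 3.52 TPM and 33.1 to 304 TPM. Of the lower antigen presentation genes, 1 of 5 was lower at E15.5 by RNA-seq and 1 of 3 by Ribo-seq. B2m had 124 and 135 TPM in E15.5 retina, within the 112 to 581 TPM of the other E15.5 tissues.

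Listed genes held 83.1% to 93.4% of the TPM total in the P42 RNA-seq libraries and 26.2% to 61.1% in the Ribo-seq libraries, lowest in retina at 26.2% and 27.5%. What the rest of each total holds is not given in the sources used here. Mitochondrially encoded genes held 17.3% and 15.6% of the TPM total in retina RNA-seq and 8.71% to 55.5% in the other organs, highest in heart. Across genes, replicates correlated in log2(TPM + 1) at 0.993 to 0.998 in RNA-seq libraries, and Ribo-seq replicates at 0.976 to 0.997. Read totals are unknown, so that no counting interval can be given for a low value or a 0. At the edge of the rule by RNA-seq, BC055324 was called with a difference of 1.00 log2 and Adamts5 was not with 0.999.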

How the data were processed

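RNA-seq and Ribo-seq of 6 mouse tissues at 2 stages gave 48 libraries, and the authors deposited 4 tables of TPM values (length-normalized shares of reads), 1 for each stage and assay, with 22055 genes each. Per the submitters' processing notes, reads were handled with CASAVA 1.8.2, cutadapt 1.8.1, TopHat2 2.0.14, Subread and featureCounts 1.6.2 on GRCm38.p6. How reads shared by several genes were treated, and whether counting used strand, is not given in the sources used here. Because the values are TPM, read totals are unknown and no counting interval is given. TPM is a share of each library, so a few abundant genes lower all others, which is why other scalings were tried.

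Groups came from the labels. Each assay of each stage was fitted apart with limma 3.58.1 in R 4.3.3 (trend, log2(TPM + 1), 12 libraries, 6 tissue groups, 6 residual degrees of freedom), with 5 contrasts of retina against each other tissue and Benjamini-Hochberg adjustment within each contrast. Genes with at least 1 TPM in at least 2 of the 12 libraries were tested. A call needed an adjusted p under 0.05 and a log2 difference of at least 1 in all 5 contrasts. The pseudocount of 1 shrinks differences of low genes. The fit was tested on simulated data.

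Named genes were the 12 with the largest smallest difference in each direction by both assays, up to 4 called genes of each list, the top 3 of each direction called by 1 assay alone, and a set of markers. Predicted genes without a name were counted and not named, and some genes that the rule takes are not reported here. Values of other list members are given where the text refers to them, and were chosen after their values were seen. The 32 lists hold 559 genes of the tables, and 1 further gene was not used. The members and lists were chosen with earlier results of these data known. Gene coordinates come from the GENCODE annotation, which matched 22029 genes, and promoters from RefSeq, which matched 16501. Alternatives were the pseudocount, the filter, 4 scalings, a log2 difference of at least 2, a replicate block, all 24 libraries of an assay in 1 fit, and leaving out each replicate. Scripts used Python 3.11.15 with numpy 2.4.6, pandas 2.3.3 and matplotlib 3.10.9.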

Additional observations from a re-analysis of the deposited data

Results flagged for a closer look

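In 7 genes the P42 and E15.5 retina lay on opposite sides of every other tissue of their stage. The difference between stages was not tested, since the tables of the stages were normalized apart. Values are the log2 difference from the nearest tissue.

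By RNA-seq, Ccn4, a matricellular protein of Wnt signalling, was 4.28 at P42 and -1.32 at E15.5. Its P42 values were 57.0 and 48.7 TPM in retina and 0.292 to 2.30 TPM elsewhere, and at E15.5 it had 0.282 and 0.241 TPM in retina and 1.53 to 42.4 TPM elsewhere. Sgk1, a glucocorticoid-induced kinase, was 1.59 at P42 and -1.04 at E15.5. Tnc, the matrix protein tenascin C, was 1.63 at P42 and -2.60 at E15.5, with 0.759 and 0.598 TPM in E15.5 retina and 7.69 to 80.2 TPM elsewhere.

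By Ribo-seq, Adipor1, an adiponectin receptor, was 1.92 at P42 and -1.77 at E15.5, and Tdrd7, a Tudor domain protein needed in the mouse lens, was 2.52 at P42 and -1.17 at E15.5. Tdrd7 footprints were 123 and 138 TPM in P42 retina and 8.07 to 27 TPM elsewhere. Ccnd1, cyclin D1, was -1.11 at P42 and 1.54 at E15.5, with 3.69 and 3.50 TPM in P42 retina and 5.38 to 41.2 TPM elsewhere, and 402 and 383 TPM in E15.5 retina and 13.5 to 139.6 TPM elsewhere. Scgb1a1, the secretoglobin of lung club cells, was -2.49 at P42 and 1.40 at E15.5, with 4.17 and 13.5 TPM in E15.5 retina and at most 2.59 TPM elsewhere. Its P42 footprints were 1.83 and 21.3 TPM in retina and at least 33.3 TPM elsewhere, and the P42 call was lost without the first retina, the first brain or either liver replicate, with no filter, with a pseudocount of 4 and under 3 of the 4 scalings.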

How the results depend on the processing

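Counts of lower genes moved most. With a pseudocount of 0.25, lower genes numbered 413 by RNA-seq, 778 by Ribo-seq and 304 by both, and with 4 they numbered 63, 100 and 33, while the P42-higher genes also higher at E15.5 numbered 107 by RNA-seq and 32 by Ribo-seq. A filter of 5 TPM gave 33 such genes by Ribo-seq. By RNA-seq, higher, lower and E15.5-shared genes numbered 951, 583 and 93 after scaling by median of ratios and 1132, 709 and 98 after centring. An equal sum gave 896 higher and 195 lower genes and 109 shared by Ribo-seq, and 805 higher and 89 lower by both. Without mitochondrially encoded genes Ribo-seq gave 847, 212 and 105, and both assays gave 753 higher. A difference of at least 2 left 715 higher and 27 lower genes by RNA-seq, 239 and 63 by Ribo-seq, 232 and 14 by both, and 52 and 25 shared with E15.5. The 5% rule on lower genes gave 185 by Ribo-seq and 75 by both. The cause was not tested.

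Leaving out 1 library at a time gave 2096 to 2613 higher and 206 to 241 lower genes by RNA-seq, 322 to 490 and 239 to 428 by Ribo-seq, 289 to 474 and 95 to 158 by both, and 97 to 168 and 16 to 62 shared with E15.5. With the genes tested kept, leaving out a retina replicate gave 480 and 440 higher by both assays and 55 and 64 shared by Ribo-seq. Reversed by median-of-ratios scaling and by centring were the RNA-seq differences of Prox1 (-0.44 and -0.049), Opn4 (-0.23 and -0.22) and Abca8a (-0.56 and -0.16). Among results for named genes, 99 of 131 by RNA-seq and 89 of 129 by Ribo-seq were unchanged under every alternative in which the gene was tested. The log2 difference of at least 2 was left out of that count. Genes that fell under the filter once a library was left out were not counted as lost. Results without a call that stayed without one count as unchanged.

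Deviations of replicates with the same number had a median correlation between tissues of 0.025 by RNA-seq and -0.037 by Ribo-seq. Of 15 tissue pairs per assay, 1 by RNA-seq and 0 by Ribo-seq had a correlation over 0.1. The most negative correlations involved retina, at -0.42 with kidney by RNA-seq and -0.52 with lung by Ribo-seq, and their cause was not tested. With a replicate block the fit gave 2590 higher and 224 lower genes by RNA-seq and 480 and 344 by Ribo-seq. Without read totals, what low TPM values can show is unknown.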

Other observations

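Genes outside the lists, all but Mgarp chosen after their values were seen, also stood apart in P42 retina. Mgarp, a mitochondrial protein, had 1354 and 1558 TPM in retina RNA-seq and at most 0.946 TPM elsewhere. Pcare, a ciliary actin regulator of photoreceptors, had 403 and 423 TPM in retina and at most 0.458 TPM, and Kcnv2, a potassium channel subunit of photoreceptors, had 433 and 373 TPM and at most 1.37 TPM. Kcnj14, an inward rectifier channel gene, had 579 and 608 TPM in retina RNA-seq and 10.7 and 8.49 TPM in retina Ribo-seq, against at most 2.71 and 0.139 TPM elsewhere. All were called higher by both assays.

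The assays called 1 gene in opposite directions. Trex1, a DNA exonuclease whose exons overlap those of Atrip, had 63.8 and 71.2 TPM in retina RNA-seq and 8.33 to 24.7 TPM elsewhere, and 1.19 and 2.16 TPM in retina Ribo-seq and 5.01 to 24.3 TPM elsewhere. The differences from the nearest tissue were 1.44 and -1.22 log2.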
